A study of Rattus norvegicus with 12 samples.

Results

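The Notch genes described here are 4 ligands (Dll1, Dll4, Jag1 and Jag2), 3 receptors (Notch1, Notch3 and Notch4) and 3 transcriptional targets (Hes1, Hey1 and Hey2). They were chosen by symbol in the array's gene annotation. All 10 were found, of 14324 genes measured, and each was read by 1 probe set. Expression was measured on 12 whole-transcript arrays of rat aortic ring cultures, in which slices of aorta are embedded in a gel and sprout new microvessels. The 4 groups of 3 arrays were TNF-treated fibrin, untreated fibrin, TNF-treated collagen and untreated collagen, all at day 2. All rings came from male Fisher 344 rats aged 1 to 2 months and were kept in serum-free EBM medium. The treated cultures received recombinant rat TNF-alpha at 10 ng/ml, and the controls received none. Each sample pooled 4 to 6 ring cultures, and the labels call the samples of a group biological replicates without saying if these are different animals. A p-value here therefore weighs a difference against the spread among these pools of rings, which may be technical.

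Notch is a receptor pathway of touching cells. A ligand of the Delta or Jagged family on one cell binds a Notch receptor on its neighbour, ADAM proteases and gamma-secretase cut the receptor, and its freed inner part enters the nucleus, joins the DNA-binding protein RBPJ and switches on genes of the Hes and Hey families, which encode repressors. In sprouting vessels Dll4 on the leading tip cell restrains the same behaviour in the cells behind it, while Jag1 and Notch3 act in the smooth muscle cells and pericytes of the vessel wall.

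The promoters of 8 of the 10 genes were found in a RefSeq table of build GRCr8, as windows from 250 bases before to 50 bases after the start site, and Dll4 and Hey1 were not among them. The core letters that RBPJ binds, TGGGAA, were searched on both strands in the 9 windows of these 8 genes. They occurred in the windows of 5 genes (Dll1, Notch3, Notch4, Hes1 and Hey2), against 25.7% of all 33469 promoter windows. An NF-kB motif and an interferon response element, searched in the same way, occurred in 0 of the 8 genes, against 0.362% and 3.92% of all windows. Hes1 had 2 TGGGAA matches on its own strand, starting 123 and 109 bases before the start site, 14 bases apart. The 250 bases before the start site are printed 5′ to 3′ for Hes1, whose 2 called differences held in every alternative run, for Hey2, a target of the same family with 2 matches and no called difference, and for Notch4, a receptor that was lower in fibrin under TNF. Capitals mark TGGGAA or its reverse complement.
Hes1 (chr11:84213046-84213295, minus strand): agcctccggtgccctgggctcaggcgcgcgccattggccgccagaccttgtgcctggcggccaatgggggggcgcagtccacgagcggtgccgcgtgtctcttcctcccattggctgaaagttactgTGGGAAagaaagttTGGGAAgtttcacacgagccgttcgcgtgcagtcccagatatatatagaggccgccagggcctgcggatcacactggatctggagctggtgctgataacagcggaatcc
Hey2 (chr1:28640850-28641099, plus strand): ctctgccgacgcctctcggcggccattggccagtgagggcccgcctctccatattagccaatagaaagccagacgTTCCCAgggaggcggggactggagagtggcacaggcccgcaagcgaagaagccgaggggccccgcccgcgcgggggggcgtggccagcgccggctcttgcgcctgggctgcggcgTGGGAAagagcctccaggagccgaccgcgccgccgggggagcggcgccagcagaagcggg
Notch4 (chr20:4189073-4189322, minus strand): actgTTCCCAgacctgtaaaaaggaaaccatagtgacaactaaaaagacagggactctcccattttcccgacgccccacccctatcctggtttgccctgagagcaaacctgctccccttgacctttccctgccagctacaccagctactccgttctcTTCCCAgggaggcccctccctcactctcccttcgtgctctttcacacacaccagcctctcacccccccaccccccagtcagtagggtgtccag
A match describes the letters and shows no binding.

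The deposited values were read as log2 levels. An array's median over all probe sets lay between 5.94 and 5.98 in collagen and between 5.89 and 5.93 in fibrin. Centring the arrays on these medians moved the median difference between fibrin and collagen by 0.06 without TNF and by 0.04 with it (log2). Arrays correlated with each other at 0.985 to 0.997 over all probe sets, and none was left out. A difference passed, or was called, at an adjusted p under 0.05 (limma, Benjamini-Hochberg over all genes of a comparison), and differences are given on the log2 scale with their standard errors. TNF responses were present in both gels: Nfkbia, the NF-kB inhibitor that NF-kB itself induces, was higher with TNF by 0.74 ± 0.07 in fibrin and by 0.70 ± 0.07 in collagen (log2 difference ± SE). Of 5 TNF-induced check genes measured (Nfkbia, Icam1, Vcam1, Birc3 and Sele), 5 rose with TNF in fibrin and 4 in collagen. Sele did not pass in collagen (0.035 ± 0.125, adjusted p = 0.934). Without TNF, 5 of 5 were also higher in fibrin than in collagen, Nfkbia by 0.81 ± 0.07 (adjusted p = 4.32e-06). Nfkbia averaged 10.84 in untreated fibrin and 10.73 in TNF-treated collagen (log2). Untreated fibrin was thus not at the level of untreated collagen for these genes. Genes of the wall's own cells were read too: the smooth muscle myosin gene Myh11 averaged 10.11 to 10.79 (log2) in the 4 groups, and the endothelial cadherin gene Cdh5 averaged 7.91 to 8.22. In whole cultures such as these, fewer cells of a type and less RNA per cell cannot be told apart.

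**Figure D1:**
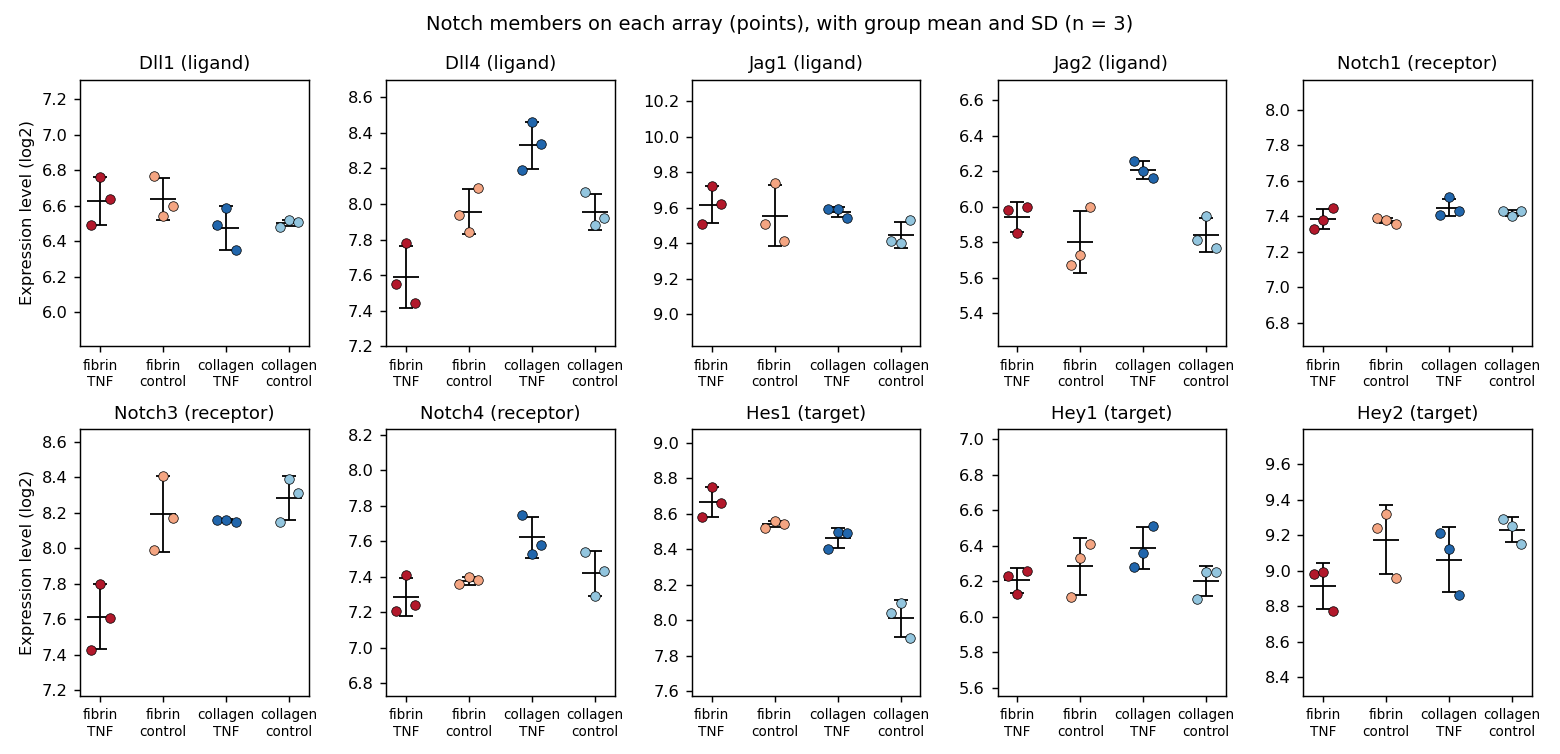
Expression level (log2) of each Notch gene on the 12 arrays, with 1 panel per gene, a span of 1.5 log2 units in every panel, points for arrays, and bars for the group mean and SD (n = 3). Hes1 lies lowest in untreated collagen, Notch3 lowest in TNF-treated fibrin, and Dll4 highest in TNF-treated collagen and lowest in TNF-treated fibrin.

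Dll4, the delta-like ligand of sprouting endothelium, stood at opposite ends in the 2 TNF-treated groups. Its log2 levels were 7.55, 7.78 and 7.44 in TNF-treated fibrin, 7.94, 7.84 and 8.09 in untreated fibrin, 8.19, 8.46 and 8.34 in TNF-treated collagen, and 8.07, 7.88 and 7.92 in untreated collagen. The arrays of the TNF-treated fibrin group were below all others and those of the TNF-treated collagen group above all others, while the 2 untreated groups overlapped.

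Under TNF, Dll4 was lower in fibrin than in collagen, with a log2 difference of -0.74 ± 0.10, which is 1.67-fold lower (7.59 ± 0.18 in fibrin and 8.33 ± 0.13 in collagen, SD, n = 3 each; limma adjusted p = 6.16e-04). Without TNF the log2 difference was 0.00 ± 0.10, with a 95% interval of -0.22 to 0.23 (adjusted p = 0.995). TNF against control gave Dll4 a log2 difference of -0.37 ± 0.10 in fibrin and 0.38 ± 0.10 in collagen, and neither passed (adjusted p = 0.0870 and 0.0521). The test of the difference itself, the TNF effect in fibrin minus that in collagen, gave -0.74 ± 0.15 and passed (adjusted p = 0.0276). That call was lost when samples were blocked by replicate number inside each gel (adjusted p = 0.0952), when p was adjusted over all probe sets, named or not (0.0522), and without any 1 of collagen control replicate 2 or 3, collagen TNF replicate 2 or 3, fibrin control replicate 1 or 3, or fibrin TNF replicate 1 or 3 (0.0574 to 0.0778). The TNF effect in collagen gained a call with median centring, array weights, a trended and robust prior or without the dimmest genes, and without fibrin TNF replicate 2 or 3 (0.0259 to 0.0465), and the effect in fibrin gained one with that prior (0.0450) and without fibrin TNF replicate 2 (0.0308).

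Jag2, a Jagged ligand, rose with TNF in collagen. Its log2 levels were 6.26, 6.20 and 6.16 in TNF-treated collagen, against 5.81, 5.95 and 5.77 in untreated collagen, and were 5.98, 5.85 and 6.0 in TNF-treated fibrin, against 5.67, 5.73 and 6.0 in untreated fibrin. The treated arrays lay above the control arrays in collagen and overlapped them in fibrin. The rise in collagen was 0.37 ± 0.09 (log2), or 1.29-fold (adjusted p = 0.0287), and the difference in fibrin was 0.14 ± 0.09 (adjusted p = 0.499). The call in collagen was lost over all probe sets (adjusted p = 0.0503) and without any 1 of collagen control replicate 1 or 3 or collagen TNF replicate 1, 2 or 3 (0.0612 to 0.115). Under TNF, Jag2 differed by -0.27 ± 0.09 between fibrin and collagen and did not pass, although the arrays did not overlap (adjusted p = 0.0979). The difference of the TNF effects, fibrin minus collagen, was -0.22 ± 0.13 (adjusted p = 0.494).

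Jag1, the Jagged ligand of endothelium and smooth muscle, and Dll1, a delta-like ligand, passed in 0 of the 5 comparisons. Group means of Jag1 lay between 9.45 and 9.62 (log2), in the order TNF-treated fibrin, TNF-treated collagen, untreated fibrin and untreated collagen, and each neighbouring pair overlapped. All 3 arrays of TNF-treated collagen lay above those of untreated collagen, a non-overlap found for 26.5% of all genes in that comparison. Its log2 differences ran from -0.07 to 0.13, and the 95% interval that reached highest among the 4 comparisons of 2 groups, TNF against control in collagen, ended at 0.32. Group means of Dll1 lay between 6.48 and 6.64, with log2 differences from -0.03 to 0.15. At 3 arrays a group the fit gave Jag1 a standard error of 0.09, and differences well above that size could also go uncalled. Jag2, with a standard error of 0.09 as well, did not pass at -0.27 between the gels under TNF.

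Notch3, the receptor of smooth muscle cells and pericytes, fell with TNF in fibrin. Its log2 levels were 7.43, 7.80 and 7.61 in TNF-treated fibrin, against 7.99, 8.41 and 8.17 in untreated fibrin, and were 8.16, 8.16 and 8.15 in TNF-treated collagen, against 8.15, 8.39 and 8.31 in untreated collagen. The TNF-treated fibrin arrays lay below all 9 others, and the other 3 groups overlapped.

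With TNF in fibrin, Notch3 fell by 0.58 ± 0.11 on the log2 scale, or 1.49-fold (7.61 ± 0.18 with TNF and 8.19 ± 0.21 without, SD, n = 3 each; adjusted p = 0.0152). It lost its call when the fibrin arrays were fitted alone (adjusted p = 0.0785), and without any 1 of fibrin control replicate 2 or 3 or fibrin TNF replicate 1 or 3 (0.0534 to 0.0730). Under TNF, Notch3 was lower in fibrin than in collagen, with a log2 difference of -0.54 ± 0.11 (1.46-fold lower, adjusted p = 0.0100). Without TNF the log2 difference was -0.09 ± 0.11 (adjusted p = 0.680). In collagen the TNF effect was -0.13 ± 0.11 (adjusted p = 0.637), and the difference between the 2 TNF effects, -0.45 ± 0.16, did not pass (adjusted p = 0.239).

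Notch4, the receptor named mainly for endothelium, had log2 levels of 7.21, 7.41 and 7.24 in TNF-treated fibrin, 7.36, 7.40 and 7.38 in untreated fibrin, 7.75, 7.53 and 7.58 in TNF-treated collagen, and 7.54, 7.29 and 7.43 in untreated collagen. Under TNF every fibrin array lay below every collagen array, while treated and control arrays overlapped within each gel. The difference between the gels under TNF was -0.34 ± 0.08 (log2; adjusted p = 0.0290), or 1.26-fold lower in fibrin. It lost its call with median centring (adjusted p = 0.0612), with only the 2 groups fitted (0.0680), over all probe sets (0.0520), and without any 1 of collagen TNF replicate 1 or 3 or fibrin TNF replicate 1 or 3 (0.0666 to 0.114). The TNF effects were -0.09 ± 0.08 in fibrin and 0.20 ± 0.08 in collagen, and neither passed (adjusted p = 0.678 and 0.217).

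Notch1, the receptor most broadly used across tissues, was the flattest of the 10 genes over the group means. They were 7.39 ± 0.06 in TNF-treated fibrin, 7.38 ± 0.01 in untreated fibrin, 7.45 ± 0.05 in TNF-treated collagen and 7.42 ± 0.02 in untreated collagen (log2, SD, n = 3 each). It passed in 0 of 5 comparisons, with the 95% intervals of all 4 differences between 2 groups inside -0.19 to 0.16.

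Hes1, a repressor of transcription that Notch and other signals induce, was lowest in untreated collagen. Its log2 levels were 8.58, 8.75 and 8.66 in TNF-treated fibrin, 8.52, 8.56 and 8.54 in untreated fibrin, 8.40, 8.50 and 8.49 in TNF-treated collagen, and 8.04, 8.10 and 7.90 in untreated collagen. In this order of means no neighbouring groups overlapped.

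Hes1 rose with TNF in collagen by 0.45 ± 0.07 (log2), or 1.37-fold (8.46 ± 0.06 with TNF and 8.01 ± 0.10 without, SD, n = 3 each; adjusted p = 0.00186). Without TNF, Hes1 was higher in fibrin than in collagen by 0.53 ± 0.07, or 1.44-fold (adjusted p = 3.05e-04). These 2 comparisons share the untreated collagen arrays. In fibrin the TNF effect was 0.13 ± 0.07 (adjusted p = 0.448), and under TNF fibrin and collagen differed by 0.20 ± 0.07 (adjusted p = 0.108). The difference of the TNF effects, -0.33 ± 0.10, did not pass (adjusted p = 0.161). Both Hes1 calls held in every alternative run, with log2 differences of 0.40 to 0.50 for TNF in collagen and 0.47 to 0.59 for untreated fibrin against untreated collagen.

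Hey1 and Hey2, repressors that act in arterial endothelium and smooth muscle, passed in 0 of 5 comparisons. Hey2 averaged 8.91 ± 0.13 in TNF-treated fibrin, 9.17 ± 0.19 in untreated fibrin, 9.06 ± 0.18 in TNF-treated collagen and 9.23 ± 0.07 in untreated collagen (log2, SD, n = 3 each). Its TNF effects were -0.26 ± 0.11 in fibrin (adjusted p = 0.290) and -0.17 ± 0.11 in collagen (adjusted p = 0.495). Hey1 ranged over group means from 6.20 to 6.39, highest in TNF-treated collagen, where all 3 arrays lay above those of untreated collagen (log2 difference 0.19 ± 0.09, adjusted p = 0.301). The matching Hey1 difference in fibrin was -0.08 ± 0.09 (adjusted p = 0.756). Of the 3 targets only Hes1 passed with TNF in collagen, and the differences of Hey1 and Hey2, 0.19 and -0.17, did not. Whether the targets differed from each other was not tested.

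**Figure D2:**
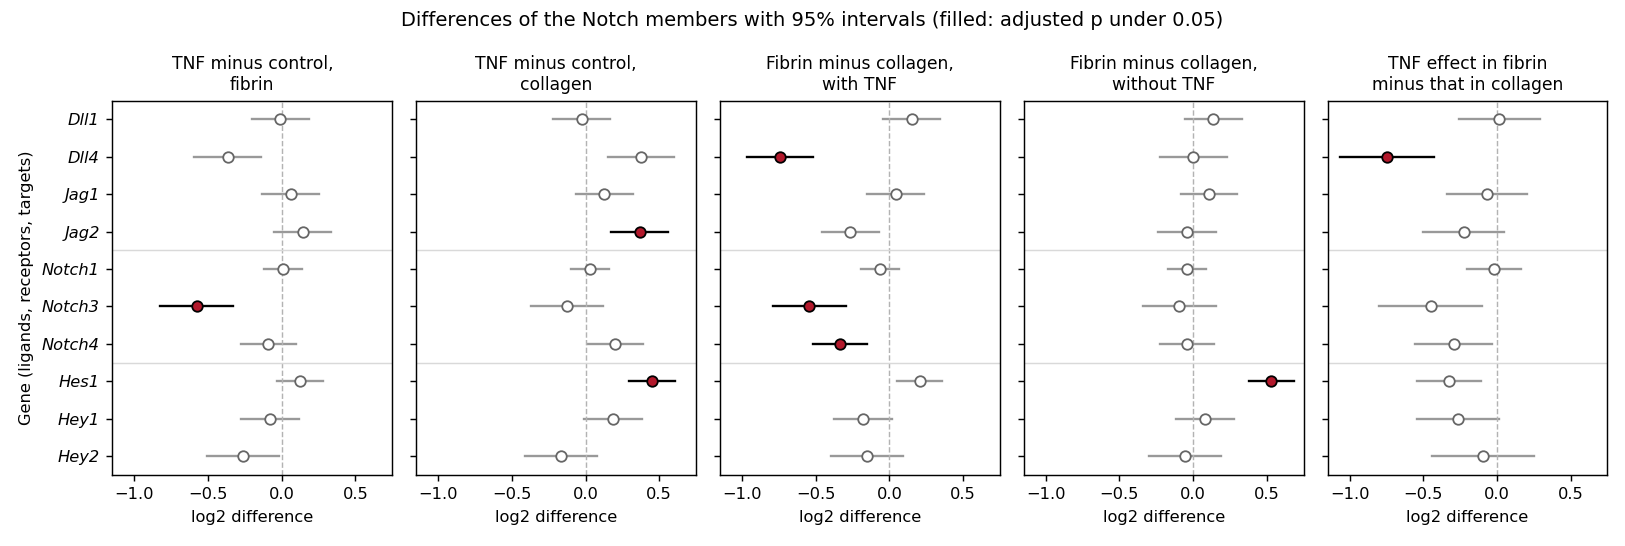
The log2 difference of each Notch gene in the 5 comparisons, with 95% intervals; filled circles passed at an adjusted p under 0.05 and open circles did not. Dll4, Notch3 and Notch4 lie below 0 in fibrin against collagen with TNF, while without TNF only Hes1 passed, above 0.

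Counted together, 0 of the 10 genes rose and 1 fell with TNF in fibrin, where 3.13% of all genes passed (1.65% higher and 1.47% lower). In collagen 2 rose and 0 fell, where 6.37% of all genes passed (3.27% higher and 3.1% lower). Under TNF, 0 were higher and 3 lower in fibrin than in collagen, where 8.19% of all genes passed (4.55% higher and 3.64% lower). Without TNF, 1 was higher and 0 lower in fibrin, where 10.5% of all genes passed (5.35% higher and 5.19% lower). For the difference of the TNF effects, 0 were higher and 1 lower, where 1.24% of all genes passed (0.37% higher and 0.866% lower). The median log2 differences of the 10 genes were -0.04, 0.16, -0.17, -0.02 and -0.24 in these 5 comparisons in turn, against 0.01, 0.00, 0.00, -0.01 and 0.01 over all genes. Groups of 3 and 3 arrays did not overlap for 3 of the 10 genes with TNF in fibrin, for 5 with TNF in collagen, for 6 between the gels under TNF and for 3 between the untreated gels. The same held for 18.1%, 26.5%, 27.6% and 29.3% of all genes.

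Of 60 further Notch pathway genes listed, 50 were measured and 10 passed in at least 1 comparison. With TNF in fibrin 0 rose and 1 fell (median -0.04, against 0.01 over all genes), and with TNF in collagen 2 rose and 1 fell (median 0.03, against 0.00). Under TNF 1 was higher and 3 lower in fibrin than in collagen (median -0.07, against 0.00), and without TNF 2 were higher and 5 lower (median -0.01, against -0.01). These shares, 2%, 6%, 8% and 14% of 50, stand beside 3.13%, 6.37%, 8.19% and 10.5% of all genes.

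Among the genes of receptor cleavage, Adam17, the sheddase that can cut Notch and also frees membrane TNF, rose with TNF in collagen by 0.34 ± 0.07 (log2; adjusted p = 0.00987) and between the untreated gels was 0.38 ± 0.07 higher in fibrin (adjusted p = 0.00336). Its 3 arrays read 11.23, 11.14 and 11.17 in untreated fibrin and 11.17, 11.07 and 11.21 in TNF-treated collagen, against 10.80, 10.73 and 10.88 in untreated collagen. As for Hes1, untreated collagen was the low group. Furin, the protease that cleaves the Notch precursor, rose with TNF in collagen by 0.29 ± 0.07 (adjusted p = 0.0257), a call lost without any 1 of the 6 collagen arrays (up to 0.0997). Aph1b, a gamma-secretase subunit, was lower in fibrin than in collagen under TNF (log2 difference -0.22 ± 0.06, adjusted p = 0.0493), and that call was lost in 16 of 21 alternatives, without each of the 12 arrays among them.

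Of the modulators, Dtx3l, an E3 ubiquitin ligase of the deltex family, was higher in fibrin than in collagen by 1.31 ± 0.12 without TNF (2.48-fold, adjusted p = 1.08e-05) and by 0.89 ± 0.12 with it (adjusted p = 4.03e-04). Dtx4, another deltex gene, was lower in fibrin under TNF (-0.64 ± 0.14, adjusted p = 0.0112), or 0.0567 without collagen TNF replicate 3. Mfap5, a microfibril protein that can bind Jagged and Notch, passed in all 5 comparisons. With TNF it fell by 0.72 ± 0.08 in fibrin and fell by 1.29 ± 0.08 in collagen (log2). It was lower in fibrin than in collagen, with log2 differences of -0.91 ± 0.08 under TNF and -1.48 ± 0.08 without it. The TNF effect in fibrin minus that in collagen, a smaller fall in fibrin, was 0.57 ± 0.11 (adjusted p = 0.0294), a call lost in 9 of 21 alternatives. The 9 are the fit over all probe sets and those without collagen control replicate 2 or 3, collagen TNF replicate 1, 2 or 3, fibrin control replicate 2 or 3, or fibrin TNF replicate 1. Dlk1, a non-canonical ligand, was lower in untreated fibrin than in untreated collagen (-0.61 ± 0.12, adjusted p = 0.00438).

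Hes5, Hes6 and Hes7, relatives of Hes1, were lower in untreated fibrin than in untreated collagen, where Hes1 was higher (log2 differences -0.30 ± 0.09, -0.24 ± 0.07 and -0.27 ± 0.08). Their adjusted p were 0.0449, 0.0445 and 0.0366. All 3 calls were lost with median centring, over all probe sets, without any 1 of the fibrin control arrays and without collagen control replicate 2. Hes5 also lost its call with only the groups compared, with array weights, and without collagen control replicate 1, collagen TNF replicate 3 or fibrin TNF replicate 1 or 3. Hes6 lost its call with only the groups compared, with the replicate block across all 4 groups (adjusted p = 0.0537), and without collagen control replicate 3, any collagen TNF replicate or fibrin TNF replicate 2, and Hes7 without collagen control replicate 1 or 3 or collagen TNF replicate 2. The highest adjusted p over all alternatives were 0.169 for Hes5, 0.161 for Hes6 and 0.107 for Hes7. Rbpj, the DNA-binding partner, differed by 0.26 ± 0.10 with TNF in collagen and 0.27 ± 0.10 between the untreated gels, and did not pass (adjusted p = 0.163 and 0.103). Notch2, the remaining receptor, passed in 0 of 5 comparisons, with -0.22 ± 0.08 in fibrin against collagen under TNF (adjusted p = 0.136).

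**Figure D3:**
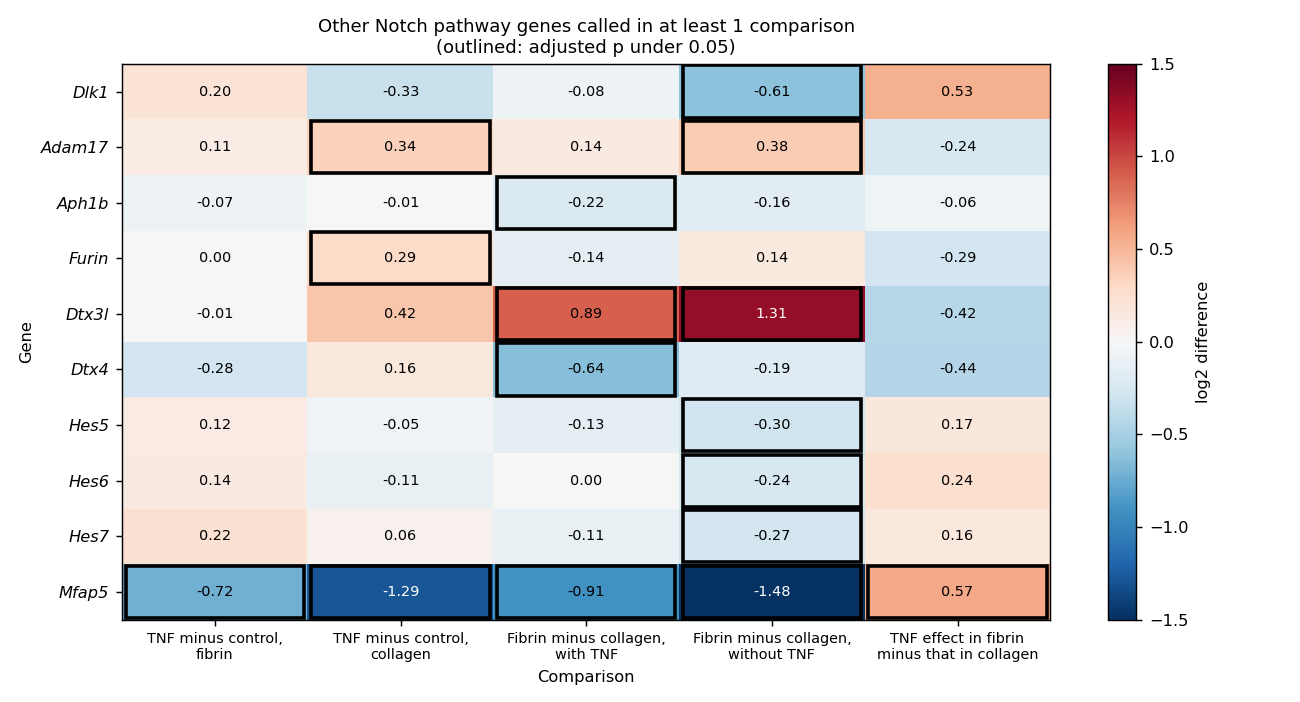
The log2 differences of the 10 further Notch pathway genes that passed in at least 1 of the 5 comparisons; outlined cells passed at an adjusted p under 0.05. Mfap5 is outlined in all 5 columns, Adam17 in 2, and Dtx3l in both columns of fibrin minus collagen.

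The vessel cell types that carry these genes were read in the same comparisons. Under TNF, 0 of 11 endothelial markers measured, of 18 listed, were higher and 0 lower in fibrin than in collagen (median log2 difference -0.24), beside -0.74 for Dll4 and -0.34 for Notch4. Their summed level on the linear scale was 4788 to 5767 in TNF-treated fibrin and 5624 to 6089 in TNF-treated collagen, ranges that overlap. Cdh5 differed by -0.05 ± 0.10 and the endothelial transcription factor gene Erg by -0.24 ± 0.07, and neither passed (adjusted p = 0.842 and 0.0769). Cldn5, a tight junction protein of endothelium, differed by -0.36 ± 0.12 (adjusted p = 0.0823), with every fibrin array below every collagen array. The count of 0 lower depends on the setting: Erg passed with quantile normalization (0.0308), without the dimmest genes (0.0390) and with the trended and robust prior (0.0388). Cldn5 passed in the last 2 of these (0.0491 and 0.0400), with the replicate block across all 4 groups (0.00640) and without fibrin TNF replicate 1 (0.0344). Of the TNF-treated groups, the summed level of the 18 arterial and tip cell genes was 8661 to 10140 in fibrin and 10760 to 11150 in collagen, ranges that do not overlap. Igfbp3, which cells other than endothelium also make, differed most among these genes. It read 9.9, 10.1 and 9.52 in TNF-treated fibrin and 11, 11.08 and 11 in TNF-treated collagen (log2). The sum without Igfbp3 was not computed, so this gap is not read as endothelial content. The part of endothelial content in the Dll4 and Notch4 values was not tested.

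Of 18 arterial and tip cell genes, 1 was higher and 4 were lower in fibrin than in collagen under TNF (median -0.14; 27.8%, against 8.19% of all genes). Apln, a peptide ligand made by tip cells, was lower (-0.62 ± 0.10, adjusted p = 0.00213), as was Igfbp3, which binds insulin-like growth factors (-1.19 ± 0.12, adjusted p = 5.80e-05). Flt4, which encodes a VEGF-C receptor, was lower too (-0.39 ± 0.08, adjusted p = 0.0110), a call lost when either collagen TNF replicate 1 (adjusted p = 0.0538) or fibrin TNF replicate 1 (0.0517) was left out. Nrp1, a co-receptor for VEGF, was the other lower gene (-0.38 ± 0.11, adjusted p = 0.0494), a call lost in 14 of 21 alternatives (up to 0.173). Bmx, a kinase of arterial endothelium, was the 1 higher gene (0.58 ± 0.16, adjusted p = 0.0429), a call lost in 11 of 21 (up to 0.160). The tip cell genes Cxcr4 and Esm1, named after their values were seen, had differences of 0.37 ± 0.18 and 0.24 ± 0.12 and did not pass (adjusted p = 0.242 and 0.286). Like Dll4, Apln and Igfbp3 passed for the difference of the TNF effects, at -0.93 ± 0.14 and -0.92 ± 0.18 (adjusted p = 0.00773 and 0.0235), the second being lost when samples were blocked by replicate number inside each gel and in 7 of the 12 fits that leave out 1 array (up to 0.0720). These 18 genes are a list of mixed use, since Igfbp3 and others are also made by cells other than endothelium.

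Markers of wall cells were read beside Notch3. With TNF in fibrin, 0 of 10 pericyte markers measured, of 11 listed, rose and 1 fell (median -0.28), and their summed level was 6587 to 7582 in TNF-treated fibrin and 8263 to 8913 in untreated fibrin, ranges that do not overlap. Anpep, an aminopeptidase of pericytes and other cells, fell (-0.66 ± 0.13, adjusted p = 0.0128), a call lost when the fibrin arrays were fitted alone and without fibrin control replicate 2 or 3 or fibrin TNF replicate 1 (up to 0.0633). Cox4i2, a subunit of cytochrome c oxidase found in pericytes, differed by -0.70 ± 0.20 without passing (adjusted p = 0.0875), and passed when samples were blocked by replicate number inside each gel (0.0140) and with the replicate block across all 4 groups (0.0146). Pdgfrb, a PDGF receptor listed here as a pericyte marker, differed by -0.30 ± 0.11 and did not pass (adjusted p = 0.184), except with that block across all 4 groups (0.0475). Rgs5, Cspg4, Abcc9 and Kcnj8 differed by -0.32 to -0.27. Mcam, Higd1b and Gja4 of the same list lay above 0, at 0.16 ± 0.09, 0.08 ± 0.11 and 0.03 ± 0.14, without passing. Of 15 smooth muscle markers measured, of 18 listed, 0 rose and 0 fell in fibrin (median -0.19), with a summed level of 6077 to 6759 in TNF-treated fibrin and 6236 to 7392 in untreated fibrin. Of 11 fibroblast markers 0 rose and 4 fell (median -0.33), and their summed level was 38500 to 43070 in TNF-treated fibrin and 48310 to 50470 in untreated fibrin, again without overlap. Between the gels under TNF, where Notch3 differed by -0.54, 0 of 10 pericyte markers were higher and 1 lower in fibrin (median -0.28). Of 11 fibroblast markers 0 were higher and 5 lower (median -0.24), and of 15 smooth muscle markers 0 and 0 (median -0.18). Of all genes 8.19% passed there. Summed levels in TNF-treated collagen were 8151 to 8866 (pericyte) and 47180 to 50270 (fibroblast), above those in TNF-treated fibrin. The smooth muscle sum, 6181 to 6823, overlapped. The part of these cell types in the Notch3 values was not tested.

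In collagen 0 of 15 smooth muscle markers rose and 6 fell with TNF (median -0.37), among them Tagln, an actin-binding protein (-0.83 ± 0.16, adjusted p = 0.00758), while Notch3 differed by -0.13 ± 0.11. Of 10 pericyte markers 0 rose and 1 fell with TNF in collagen (median 0.23). Pdgfrb fell (-0.46 ± 0.11, adjusted p = 0.0206), a call lost without collagen control replicate 3 or collagen TNF replicate 1 or 2 (up to 0.0953). Anpep differed by 0.26 ± 0.13 in collagen and did not pass (adjusted p = 0.3075). For Hes1, which many cell types make, no marker list is particular. Between the untreated gels, where Hes1 was higher in fibrin by 0.53, 0 of 17 macrophage markers were higher and 10 lower (median -0.73). Of 15 smooth muscle markers 0 were higher and 7 lower (median -0.32). Of 11 fibroblast markers 1 was higher and 3 lower (median -0.04), and of 11 neutrophil markers 2 were higher and 0 lower (median 0.01). Endothelial and pericyte markers had 0 higher and 1 lower each. Of all genes 10.5% passed in this comparison. The part of these cell types in the Hes1 value was not tested. No detection calls come with the values used here, so which genes lay above background is not known.

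**Figure D4:**
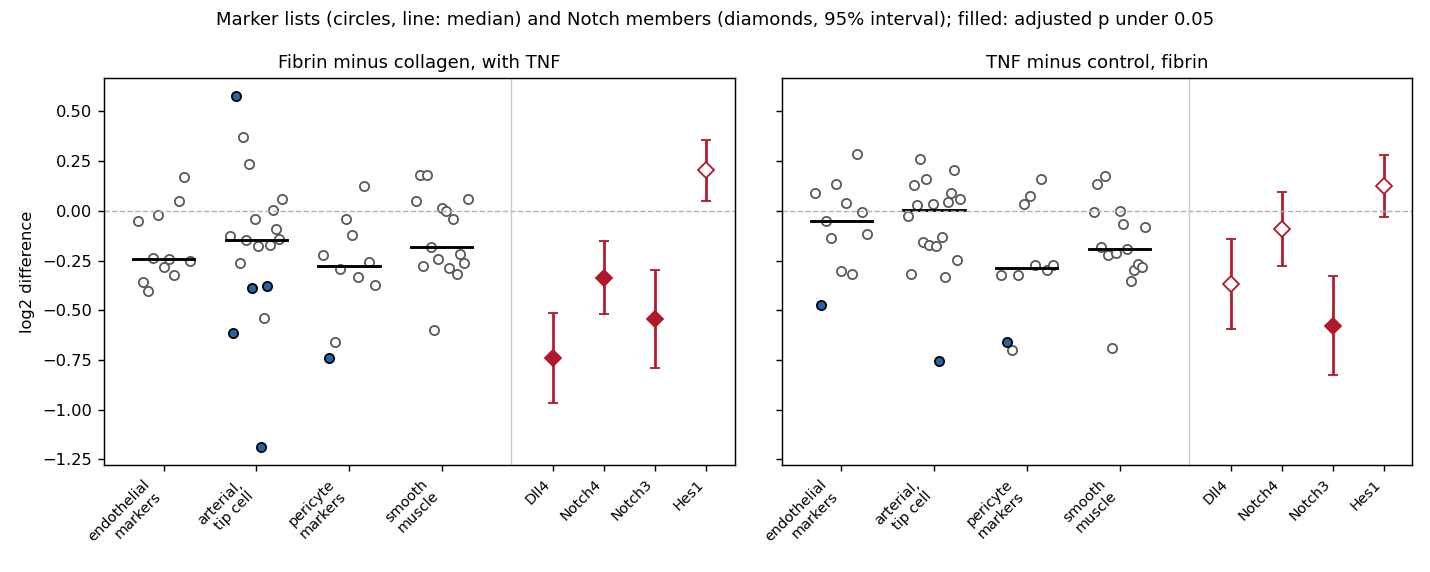
The log2 differences of 4 marker lists (circles, with the median as a line) beside Dll4, Notch4, Notch3 and Hes1 (diamonds, with 95% intervals), for fibrin minus collagen with TNF (left) and TNF minus control in fibrin (right); filled symbols passed at an adjusted p under 0.05. On the left Dll4, at -0.74, lies below each of the 11 endothelial markers measured, of 18 listed. Igfbp3 of the arterial and tip cell list lies lower than Dll4 there.

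The genes most like each called Notch gene were found by the root-mean-square difference of centred log2 values over the 12 arrays, and are a description. They were picked for following the Notch gene on these same arrays. Differences they share with it follow from that choice and lend it no support. For Dll4 they were Podxl (0.09), Elovl6 (0.12) and Pdk1 (0.14), where the spread of Dll4 itself about its mean was 0.28 by the same measure. Podxl, which encodes the sialomucin podocalyxin of the endothelial surface, was lower in fibrin than in collagen under TNF (log2 difference -0.57, adjusted p = 0.00165). Pdk1, a kinase that limits the entry of pyruvate into mitochondria, had a difference of the TNF effects, fibrin minus collagen, of -0.85 (adjusted p = 0.0187), a call lost without collagen TNF replicate 2 or 3 or fibrin control replicate 2 (up to 0.0565).

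For Hes1 the nearest genes were Ifnar1, an interferon receptor chain (0.07), Hif1a, the hypoxia-inducible factor (0.08), and Osmr, the oncostatin M receptor (0.08), where the spread of Hes1 was 0.25. Picked for likeness to Hes1, all 3 shared its 2 differences. They rose with TNF in collagen by 0.38, 0.47 and 0.37 (log2), and between the untreated gels they were higher in fibrin, by 0.41, 0.48 and 0.47. For Notch3 they were Ank2, Lrp6 and Slc2a12 (0.08 to 0.09, against a spread of 0.29), for Notch4 Alg10, Aldh16a1 and Ap1b1 (0.04 to 0.06, against 0.15), and for Jag2 Olfm3, Lad1 and Rasgrp1 (0.09 to 0.10, against 0.18).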

How the data were processed

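RNA of 12 aortic ring samples (200 ng each) was hybridised to Affymetrix whole-transcript arrays, per the labels' protocols. The deposited values, 1 per probe set and array, lie between 1.44 and 14.07 and were taken as log2 expression levels from that range. Their summarisation, background correction and normalization are not given in the sources used here, and limma is named, without a version, per the submitters' processing notes. No batch or scan date was available, and the number of arrays limits the precision. Groups were read from the sample titles.

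Of 27342 probe sets 15097 name 1 gene, 323 several and 11922 none in the platform annotation, and 15067 of the 15097 matched RefSeq. The probe set of highest mean stood for each of 14324 genes. limma 3.58.1 in R 4.3.3 fitted 1 mean per group over all 12 arrays (lmFit, eBayes, two-sided), and p-values were Benjamini-Hochberg adjusted over all genes within each of 5 comparisons, with 0.05 as the threshold for passing. A value after ± is a standard error unless marked SD. The script was tested on simulated data.

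The main fit had no replicate block, so its p-values take the samples as unpaired. The labels number the replicates but do not say that a number is shared by groups. Correlations of same-numbered deviations between TNF and control were 0.248, 0.144 and 0.159 in fibrin and 0.133, 0.139 and 0.144 in collagen. Between the matrices they were 0.053, 0.031 and 0.143 with TNF, and 0.233, 0.081 and 0.129 without. Blocks by replicate number, within each matrix or across all 4 groups, were run only as alternatives.

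The Notch genes, the further pathway genes and the marker lists were chosen with earlier results of these data known. All 10 Notch genes are named, as is every further pathway gene that passed in any comparison. Of some marker lists, genes that passed and others that did not are named. The 3 genes most like each called Notch gene were also named. Alternatives covered normalization, centring, a filter on dim genes, the samples in the fit, the prior, array weights, the choice of probe set, the features tested, replicate blocks and leaving out each array.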

Additional observations from a re-analysis of the deposited data

Results flagged for a closer look

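The TNF effect on Dll4 differed between the gels by a test of the difference itself. The effect was -0.37 ± 0.10 in fibrin and 0.38 ± 0.10 in collagen (log2 difference ± SE), and fibrin minus collagen came to -0.74 ± 0.15 with a 95% interval of -1.06 to -0.42 (limma adjusted p = 0.0276). All 3 TNF-treated arrays lay below the 3 controls in fibrin, and all 3 lay above them in collagen. Such non-overlap, in either direction, held for 18.1% of all genes in fibrin and 26.5% in collagen. Blocking samples by replicate number inside each gel left the value as it was and gave an adjusted p of 0.0952. The call was lost in 10 of 21 alternatives, that block and fits without 1 array among them.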

How the results depend on the processing

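Of 8 called differences of the 10 Notch genes, 4 kept their call in all 21 or 22 alternatives (both of Hes1, and Dll4 and Notch3 between the gels under TNF), and 0 changed sign. Of the uncalled differences 2 gained a call and 14 changed sign in at least 1 alternative, without passing on either side. For TNF in fibrin, fitting only the groups compared left 230 genes and 0 Notch genes, against 448 and 1, and a trended and robust prior called 2 Notch genes. For TNF in collagen, adjusting over all probe sets left 1 Notch gene, against 2. For the difference of the TNF effects, 177 genes became 294 without the dimmest genes, 276 under a replicate block across all 4 groups and 339 under the trended, robust prior, and the 1 Notch gene, Dll4, became 0 over all probe sets and with the replicate block within each matrix. The replicate block changed no other call of a Notch gene. Without 1 array at a time, counts of genes ran from 237 to 539 for TNF in fibrin, 568 to 940 for TNF in collagen, 727 to 1196 between the gels under TNF, 1071 to 1573 without TNF and 103 to 246 for the difference, and Notch genes from 0 to 2, 1 to 3, 2 to 3, 1 to 1 and 0 to 1. Gene counts moved by over 1.5 times for TNF in fibrin without fibrin control replicate 2 (242) or 3 (237) or fibrin TNF replicate 1 (255) or 3 (287), and for TNF in collagen without collagen control replicate 2 (601) or 3 (568) or collagen TNF replicate 1 (589) or 2 (568). They did so between the gels under TNF without collagen TNF replicate 3 (727) or fibrin TNF replicate 1 (768), and for the difference without collagen TNF replicate 1 (117) or 2 (103) or fibrin control replicate 2 (112). Median centring turned 652 higher and 521 lower genes between the gels under TNF into 880 and 387, and 767 and 743 without TNF into 1217 and 474. The cause of these changes was not tested. With a median standard error of 0.09 over genes, small differences were not detectable.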
